A study of Mus musculus with 9 samples.

Results

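A group of 10 genes of the cyclic nucleotide phosphodiesterase family was followed through extrachromosomal circular DNA (eccDNA), closed circles of chromosomal sequence, in the mouse heart. The 10 genes were Pde1a, Pde1c, Pde3a, Pde3b, Pde4b, Pde4d, Pde5a, Pde7b, Pde8a and Pde10a. Every circle that the deposited table places on one of these genes was taken, which gave 288 distinct pairs of circle and gene, all of them different circles. They made up 0.193% of the 149584 distinct circles in the table, and 0.454% of the circles that lie in a protein-coding gene.

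The circles came from wild-type C57BL/6J mice in 9 Circle-seq libraries, 3 from embryonic hearts (E18), 3 from neonatal hearts (3d) and 3 from adult hearts (8w). In Circle-seq, linear chromosomal DNA is digested away, and what is left is amplified by phi29 polymerase before sequencing. A circle is recognised by split reads, which cross the junction where its ends meet, and 1 such read was enough for it to be taken as found in a library. The labels number the libraries of a stage as biological replicates, name cardiocytes as the cells, and do not say how many hearts went into a library, nor whether the hearts were taken whole. A DNA assay gives no expression level, so the cell type could not be checked against marker genes. Nor can the share of cells that carried a circle be told apart from the number of copies per cell.

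There were 35273, 9039 and 10485 circles in the E18 libraries, 32194, 26648 and 42963 at 3d, and 3931, 14721 and 6645 at 8w, from 11377 to 846374 split reads each. 8w replicate 1 and 3d replicate 1 stood apart: 60.5% of the circles of 8w replicate 1 and 37.9% of those of 3d replicate 1 rested on a single split read, against 6.21% to 16.7% in the other libraries. Because of these unequal yields, levels are given as circles of a gene per 10000 circles of the same library.

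Cyclic nucleotide phosphodiesterases break down the second messengers cAMP and cGMP and so end the signal that a hormone or neurotransmitter started. In the heart, cAMP made after beta-adrenergic stimulation drives stronger and faster contraction, cGMP made after natriuretic peptides or nitric oxide restrains it, and the enzymes keep both messengers within small regions of the cell. Many of the genes are long and have several promoters that give rise to different isoforms. The circles report on pieces of these genes and not on their transcripts.

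Among the 288 circles, 1 took in an annotated gene start. It lay at the 5′ end of Pde1a (chr2:80129273-80129684, GRCm38/mm10), was 412 bp long and had 100 split reads, all in E18 replicate 1. The gene model of the table shared 186 bp with the circle, and 226 bp lay beyond the model. The circle held the whole of a 300 bp RefSeq promoter window, the only 1 of 17 such windows (for 8 of the 10 genes) that any of the circles overlapped. The 250 bases upstream of the RefSeq start in that window, at 80129412, are shown because theirs was the only 1 of these 17 windows found on a circle. The gene model of the table begins at 80129458, so the last of these bases lie inside that model. They lie on the minus strand at chr2:80129413-80129662 and come from RefSeq (GRCm38.p6). Capitals mark ATTGG, the reverse complement of the CCAAT box.
Pde1a promoter: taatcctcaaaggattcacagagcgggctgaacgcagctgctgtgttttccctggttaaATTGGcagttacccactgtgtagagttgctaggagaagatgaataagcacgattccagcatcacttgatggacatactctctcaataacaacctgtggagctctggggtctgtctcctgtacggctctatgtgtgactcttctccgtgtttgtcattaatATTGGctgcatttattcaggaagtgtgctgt

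The CCAAT matches begin 191 and 31 bases before the RefSeq start, and the nearer match lies inside the gene model of the table. CCAAT or ATTGG occurs in 33.8% of the 32851 RefSeq promoter windows searched in the same way, on both strands. The TATA motif TATAAA, the Sp1 motif GGGCGG and the cAMP-responsive motif TGACGTCA had 0 matches here, and occur in 12.4%, 32.7% and 1.55% of windows. The sequence had a GC content of 46.0% and 5 CG dinucleotides, against medians of 52.4% and 6 over all windows. A match is a match of letters and not a shown binding site. Among the starts of the 17 windows, no other had a circle on it. The nearest of these were a second Pde1a start, 302 bp from a circle, and a Pde1a start 1832 bp from one, followed by a Pde10a start at 2105 bp. The windows do not cover the 5′ end of every gene model. That of Pde7b has no window, and the midpoint of a circle lay 1.69 kb from it.

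The calmodulin-activated enzymes Pde1a and Pde1c cleave both messengers when calcium rises. Pde1a (ENSMUSG00000059173, chr2:79834453-80129458, minus strand) had 26 distinct circles in 295 kb. There were 6, 0 and 1 circles in the E18 libraries, 6, 6 and 10 at 3d, and 0, 4 and 0 at 8w. All adult circles of the gene thus came from replicate 2. Per 10000 circles, Pde1a averaged 0.885 ± 0.853 at E18, 2.15 ± 0.249 at 3d and 0.906 ± 1.57 at 8w (SD, n = 3 each). Every 3d library lay above every E18 library, while the adult libraries spanned from 0 to above all others. Pde1c (ENSMUSG00000004347, chr6:56069821-56369634, minus strand) had 15 distinct circles. They numbered 0, 1 and 3 at E18, 3, 4 and 4 at 3d, and 0, 4 and 0 at 8w, so its stages overlapped, and its adult circles too came from replicate 2 alone.

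The most sequenced Pde1a circle away from the start, at chr2:79905539-79905928 (390 bp), had 119 split reads in 3d replicate 3 and 1 in 8w replicate 2. The 2 longest circles of the family were also in Pde1a. The longest (2216 bp, chr2:80118724-80120939) had 70 reads, all in 3d replicate 3. The next (2185 bp, chr2:79948050-79950234) had 14 reads in 3d replicate 2 and 1 each in E18 replicates 1 and 3. A pair of Pde1a circles, chr2:79924947-79926103 (1157 bp) and chr2:79924948-79926102 (1155 bp), carried the same reads, 18 in 3d replicate 2 and 1 in 3d replicate 3, and was listed as separate circles. The counts of distinct circles therefore include at least 1 circle whose ends differ from another by a single base on each side.

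Pde3a and Pde3b, the cGMP-inhibited enzymes, cleave cAMP. Pde3a is the target of milrinone in the heart, and Pde3b is best known from fat cells and the response to insulin. Pde3a (ENSMUSG00000041741, chr6:141249269-141499351, plus strand) had 21 circles. Its libraries held 4, 0 and 1 at E18, 9, 4 and 3 at 3d, and 0, 2 and 1 at 8w. The stages overlapped, with means per 10000 of 0.696 ± 0.609 at E18, 1.66 ± 1.06 at 3d and 0.954 ± 0.83 at 8w. Only 2 of its circles lay in the 5′-most of 3 equal parts of the gene, against 7 in the middle and 12 in the 3′ part. The circle at chr6:141499173-141499572 ran past the 3′ end of the gene model, with 179 of its 400 bp inside and 2 reads in E18 replicate 1. Pde3b (ENSMUSG00000030671, chr7:114415281-114539251, plus strand) had 7 circles, 1 in E18 replicate 1, 5 in 3d replicate 3 and 1 in 8w replicate 2. That was too few for the test across genes, which required 10.

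Another 4 of the genes encode cAMP-specific enzymes: Pde4b and Pde4d, the rolipram-sensitive enzymes that limit beta-adrenergic signals, and Pde7b and Pde8a, which rolipram does not inhibit. Pde4d (ENSMUSG00000021699, chr13:108449948-109953461, plus strand) is the longest of the 10 at 1504 kb in the table and held 102 of the 288 circles. There were 24, 4 and 9 circles in the E18 libraries, 16, 18 and 26 at 3d, and 1, 13 and 5 at 8w. Per 10000 circles that came to 6.60 ± 2.09 at E18, 5.93 ± 0.899 at 3d and 6.30 ± 3.32 at 8w. The stage means differed by less than the spread within E18 or within 8w, and Pde4d was, with Pde10a, 1 of 2 members found in all 9 libraries.

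The Pde4d circle at chr13:108900245-108900613 (369 bp) was the only circle of the family seen at all 3 stages, with 15 reads in E18 replicate 3, 3 in 3d replicate 1 and 1 in 8w replicate 3. The circle with the most reads of the family, at chr13:108498084-108498514 (431 bp), had 133, all in E18 replicate 1. The longest Pde4d circle, 1656 bp at chr13:109623283-109624938, had 32 reads in that same library. None of the Pde4d circles overlapped the hairpins of Mir582 and Mir1904, the microRNA genes within it, whose nearest circles were 4668 and 2641 bp away.

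Pde4b (ENSMUSG00000028525, chr4:102087543-102607259, plus strand) had 29 circles, with 9, 1 and 2 in the E18 libraries, 3, 4 and 8 in the 3d libraries and 0, 3 and 1 in the 8w libraries. Pde7b (ENSMUSG00000019990, chr10:20398004-20725078, minus strand) had 23, with 8, 1 and 1 in the E18 libraries, 2, 2 and 11 at 3d, and 1, 2 and 0 at 8w. Both genes gave overlapping stages, and in each of them 1 library held most of the E18 circles and 1 most of the 3d circles. Pde7b had only 2 of its circles in the 3′-most of 3 equal parts. One of these, at chr10:20404953-20405044 (92 bp), had 10 reads in 3d replicate 2 and 18 in 3d replicate 3, which made it 1 of just 4 circles of the family with 5 or more reads in 2 libraries.

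Pde8a (ENSMUSG00000025584, chr7:81213596-81334533, plus strand) is the shortest of the 10 at 121 kb and was the most densely covered, with 15 circles. There were 3, 2 and 3 circles in the E18 libraries, 4, 4 and 5 at 3d, and 1, 0 and 0 at 8w. It was found in all 6 E18 and 3d libraries, and in the adult only in replicate 1, the library with the largest share of single-read circles, where its circle had 1 read. Per 10000 circles the gene averaged 1.97 ± 1.03 at E18, 1.3 ± 0.176 at 3d and 0.848 ± 1.47 at 8w. Summed over libraries, the adult had 0.310 times the 3d level (exact 95% interval 0.00728 to 2.06, counting error only), an interval that includes no difference. The Pde8a circle with the most reads, at chr7:81333129-81334225 (1097 bp) near the 3′ end, had 65 in E18 replicate 2 and 1 in 3d replicate 2.

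Pde5a, the cGMP-specific enzyme that sildenafil inhibits, had 9 circles (ENSMUSG00000053965, chr3:122729158-122859374, plus strand). They numbered 2, 0 and 0 at E18, 2, 2 and 4 at 3d, and 0, 2 and 1 at 8w. Every 3d library lay above every E18 library per 10000 circles, with means of 0.768 ± 0.156 at 3d and 0.189 ± 0.327 at E18, which rests on 8 and 2 circles. Its longest circle (1532 bp, chr3:122858320-122859851) ran 477 bp past the 3′ end of the gene model and had 46 reads in 3d replicate 3 and 1 in 3d replicate 1. Pde10a, an enzyme for both messengers that is best known from the striatum of the brain, had 41 circles (ENSMUSG00000023868, chr17:8525372-8986648, plus strand). There were 15, 3 and 1 circles in the E18 libraries, 9, 5 and 10 at 3d, and 1, 5 and 2 at 8w. The means per 10000 were 2.84 ± 1.70 at E18, 2.33 ± 0.460 at 3d and 2.98 ± 0.427 at 8w, closer together than the E18 libraries were among themselves. Its circle at chr17:8552565-8553876 (1312 bp) had 124 reads in E18 replicate 1 and 1 each in E18 replicate 2 and 3d replicate 1, and its longest (1888 bp, chr17:8962865-8964752) had 109 in 3d replicate 2 and 1 in 8w replicate 2.

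**Figure D1:**
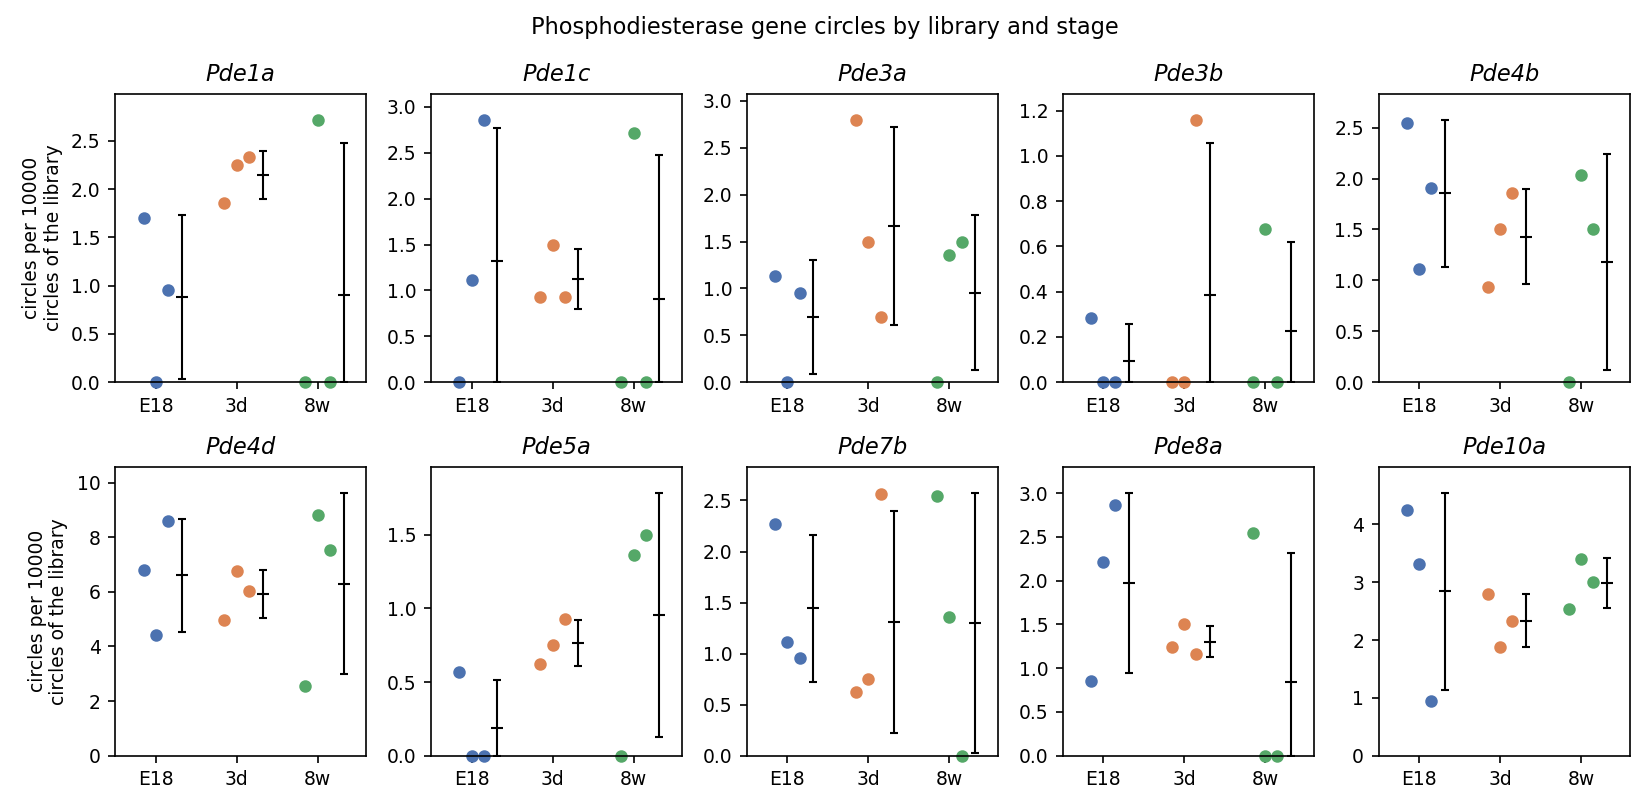
Circles of each phosphodiesterase gene per 10000 circles of the library, in a panel per gene. Points are libraries, and the black bars give the mean ± SD of the 3 libraries at E18, 3d and 8w; Pde4d lies highest at every stage, and the adult points of Pde1a and Pde1c are 0 in 2 of 3 libraries.

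The series asks to what extent eccDNA occurs at each stage of heart development. Over all 10 genes together there were 72, 12 and 21 circles in the E18 libraries, 54, 49 and 86 at 3d, and 4, 36 and 10 at 8w. Per 10000 circles of the library these were 20.41, 13.28 and 20.03 at E18, 16.77, 18.39 and 20.02 at 3d, and 10.18, 24.45 and 15.05 at 8w. The means of 17.9 ± 4.01 at E18, 18.4 ± 1.63 at 3d and 16.6 ± 7.25 at 8w lay within the range of the 3 adult libraries. Without the library that stood apart at each of the later stages, the 3d mean was 19.2 and the 8w mean 19.8. The large differences in numbers of circles thus went with those in the yield of whole libraries. Every gene had at least 1 circle at each stage, although Pde3b and Pde8a had 1 circle each in the adult.

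Circles per gene were compared between stages with edgeR's quasi-likelihood test over all 2174 genes with at least 10 circles, 9 of the 10 among them. The 3 comparisons share libraries, the 3d libraries serving in both 3d over E18 and 8w over 3d. None of the 9 passed an adjusted p of 0.05 in any of the 3 comparisons, and neither did any other gene (0% of genes called in each). At an unadjusted p under 0.05, edgeR had 0 of 9 members in every comparison, against 4.83% (3d over E18), 13% (8w over 3d) and 8.6% (8w over E18) of all genes. DESeq2 also called 0 genes in each, and edgeR called 0 without 3d replicate 1 and without 8w replicate 1. With TMM scaling of these sparse counts, the median gene changed by 0.28 (3d over E18), -0.85 (8w over 3d) and -0.62 (8w over E18) on the log2 scale, so log2 changes are given relative to that median, while p-values belong to the unshifted change. With library totals alone as the scaling, the medians were 0.096, -0.26 and -0.19, so part of each median came with the scaling.

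In 3d over E18 the relative log2 changes ran from -0.64 (Pde4b) to 0.90 (Pde5a), with a median of -0.25 and 4 of 9 above the median gene. Pde5a (0.90, SE 1.06, edgeR adjusted p = 0.983) and Pde1a (0.65, SE 0.64, edgeR adjusted p = 0.983) were the 2 members whose 3d libraries all lay above their E18 libraries, and 7.77% of all genes did the same. No member lay lower in every library, as 4.69% of genes did. In 8w over 3d the changes ran from -1.29 (Pde8a) to 0.78 (Pde5a), with a median of 0.31. Pde8a had the lowest p of the family in this comparison (SE 1.21, edgeR unadjusted p = 0.0771, adjusted p = 0.399). Its value was -4.02 without 8w replicate 1, which held its only adult circle, and -0.11 without 8w replicate 2. The fit that gave -4.02 thus had no adult circle of the gene. None of the members had adult libraries all higher or all lower than the 3d libraries, against 2.62% and 16.7% of genes. In 8w over E18, Pde8a (-1.51, SE 1.28, edgeR adjusted p = 0.676) and Pde5a (1.72, SE 1.31, edgeR adjusted p = 0.831) marked the ends of the range. Pde8a stood at -4.30 without 8w replicate 1, again with no adult circle left, and -0.27 without 8w replicate 2. Without E18 replicate 1, which held both E18 circles of Pde5a, Pde5a stood at 4.01, and at 3.24 in 3d over E18. In 8w over E18 no member had libraries all higher or all lower, against 2.58% and 6.81% of genes. In the same order of comparisons, 9, 9 and 8 of the 9 members lay between the 10th and 90th percentile of all genes.

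**Figure D2:**
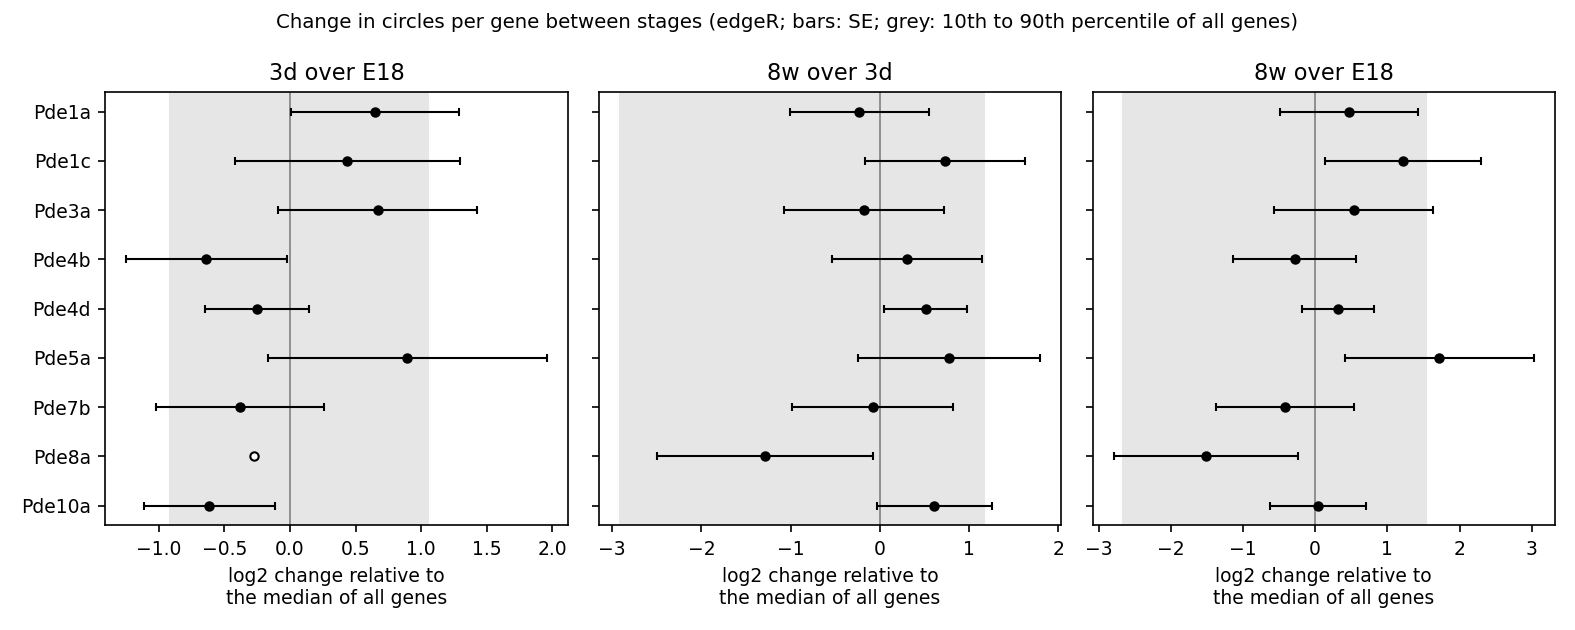
Log2 change in circles per gene, relative to the median of all genes, for the 9 tested phosphodiesterase genes in each comparison of stages. Points are edgeR estimates with bars of 1 SE, which belongs to the unshifted change (open point: no SE, fitted change near 0). The grey span covers the 10th to 90th percentile of 2174 genes. Only Pde5a in 8w over E18, at 1.72, lies outside it.

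The split reads of single circles gave no call either. Of the 2893 circles present in 3 or more libraries, 5 lay in these genes, 2 each in Pde4d and Pde10a and 1 in Pde1a. None of the 5 passed in any comparison by edgeR, whose lowest adjusted p among them was 0.34, nor did any other circle (0% called). At an unadjusted p under 0.05 there were also 0 of the 5, against 4.36% (3d over E18), 0.726% (8w over 3d) and 0.242% (8w over E18) of circles. DESeq2 called 2, 3 and 3 circles in the same comparisons, none of them in these genes.

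By size, the circles of the adult libraries lay apart from those of both younger stages. A circle under 250 bp is here called short. Short circles made up 8.33%, 8.33% and 19.05% of the phosphodiesterase circles of the E18 libraries, 13.0%, 26.5% and 9.30% in the 3d libraries, and 100%, 86.1% and 80.0% in the 8w libraries. The adult libraries were thus all far above every younger one, although 8w replicate 1 held only 4 circles (4 of 4, Wilson 95% interval 51.0% to 100%). In 8w replicates 2 and 3, 31 of 36 circles (71.3% to 93.9%) and 8 of 10 (49.0% to 94.3%) were short. These intervals reflect counting error alone, with circles taken as independent, and leave out the spread between libraries. The means were 11.9% ± 6.19 at E18, 16.3% ± 9.08 at 3d and 88.7% ± 10.2 at 8w. Over all circles of the libraries the share was also highest in the adult, but it was lower at 3d than at E18, with 22.8% ± 2.16 for E18, 17.6% ± 9.70 at 3d and 72.9% ± 23.4 at 8w. Without 3d replicate 1 the 3d mean of the family was 17.9%, and without 8w replicate 1 the 8w mean was 83.1%. No test was made of these sums over chosen genes.

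The median length of the phosphodiesterase circles was 374.5, 609.5 and 371 bp in the E18 libraries, 381.5, 374 and 403.5 bp in the 3d libraries, and 147.5, 139.5 and 129.5 bp in the 8w libraries. In the 8w libraries, the medians of all circles were 331, 135 and 103 bp, so that replicate 1 was the library where the family and the rest lay farthest apart, on 4 circles. By distinct circles, E18 had 11 short ones of 102, 3d had 26 of 169 and 8w had 40 of 47. The class from 250 to 450 bp held 65 circles in the E18 libraries, 76 at 3d and 5 at 8w. Short circles predominated in the adult in every member. In Pde4d, 3 of 37 circles were short at E18, 13 of 56 at 3d and 15 of 18 at 8w. In Pde10a, 1 of 18 was short at E18, 5 of 22 at 3d and 5 of 8 at 8w. In Pde1a, 1 of 6 was short at E18, 2 of 18 at 3d and 3 of 4 at 8w. Each of the other 7 genes had only short circles in the adult, from 1 to 4 apiece.

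**Figure D3:**
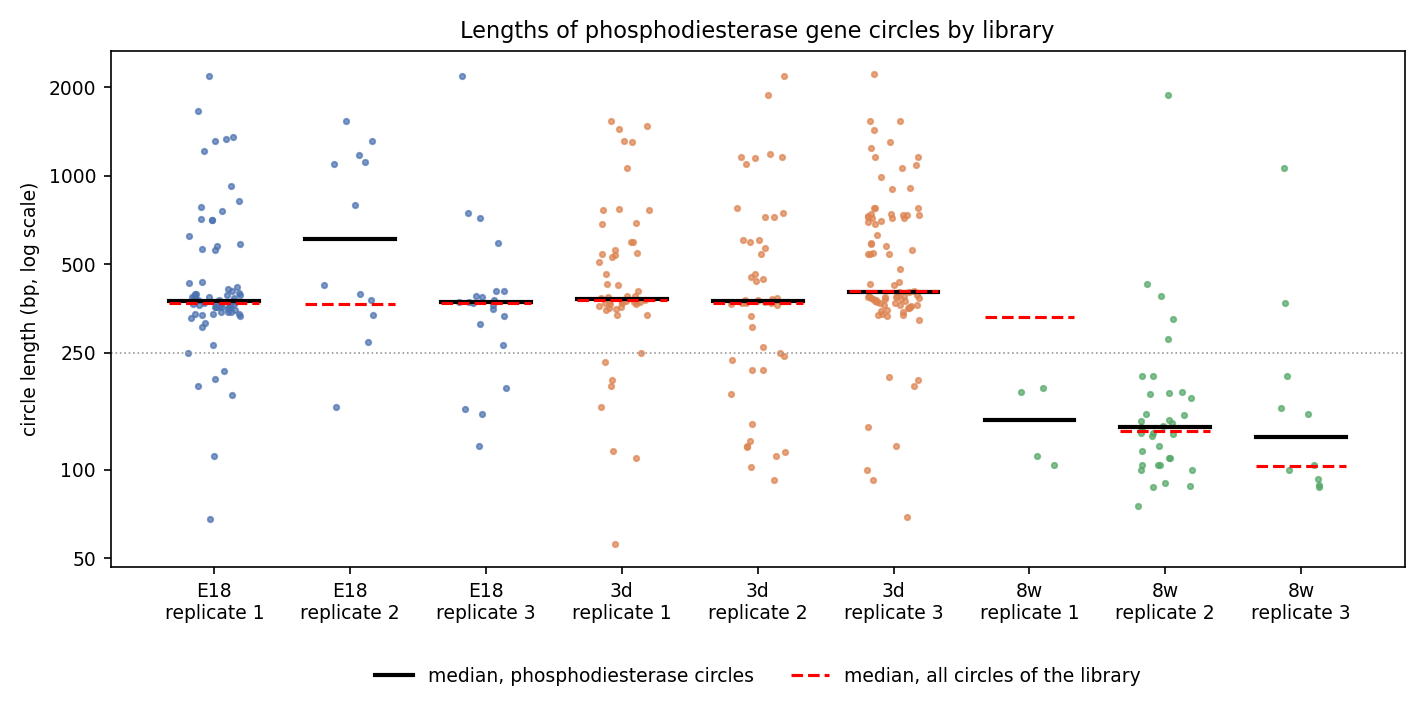
Lengths of the phosphodiesterase circles of each library, in bp on a log scale. A circle found in several libraries appears in each. Solid black lines give the median of the phosphodiesterase circles, and dashed red lines the median of all circles of the library. Counted as distinct circles, the class from 250 to 450 bp holds 65 of 102 at E18 and 76 of 169 at 3d, and 40 of 47 at 8w are under 250 bp.

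The 7 adult circles of 250 bp or more were 3 in Pde10a, 3 in Pde4d and 1 in Pde1a. Of these, 4 had a single read in the adult and more in a younger library. They were the Pde1a and Pde10a circles given above with 119 and 109 reads at 3d, the Pde4d circle of all stages, and a Pde4d circle of 1062 bp (chr13:108704313-108705374) with 10 reads in 3d replicate 3, 1 in 3d replicate 1 and 1 in 8w replicate 3. The remaining 3, in Pde10a (428 and 278 bp) and Pde4d (325 bp), were in 8w replicate 2 alone with 14, 9 and 3 reads. Over all stages, 24 circles of the family (8.33%) were over 1000 bp, against 6.8% of all circles, and the median length of 373.5 bp lay near the 369 bp of all circles.

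Most circles were seen in a single library. Of the 288, 237 (82.3%) were in 1 library, 46 (16%) in 2 and 5 (1.74%) in 3, against 80.6%, 17.5% and 1.93% (3 or more) of all circles. No circle was in all 3 libraries of a stage. By stage, 83 circles were found at E18 alone, 141 at 3d alone and 35 at 8w alone. Another 17 were shared by E18 and 3d, 10 by 3d and 8w, 1 by E18 and 8w, and 1 by all 3 stages. Of the 47 adult circles, 12 were thus also found at a younger stage. Sharing leaned on 3d replicate 1: it held 25 of the 51 circles in more than 1 library, 21 of them with 1 read there, and without it 30 were shared. Of all 51, 4 had 5 or more reads in 2 libraries. Beside the Pde7b circle, they were in Pde4b (chr4:102272134-102272569, 436 bp, 22 reads in E18 replicate 1 and 7 in 3d replicate 3), Pde5a (chr3:122732983-122733525, 543 bp, 17 and 14 reads in 3d replicates 2 and 3) and Pde8a (chr7:81269816-81270202, 387 bp, 8 reads in E18 replicate 1 and 43 in 3d replicate 3). The adult circles in more than 1 adult library numbered 3, one each in Pde4d, Pde5a and Pde7b, of 104, 208 and 184 bp, and in each case 1 of the libraries had a single read.

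The circles were spread along the genes. Divided into 3 equal parts from 5′ to 3′, the genes held 99, 91 and 98 circles. In Pde4d, windows of 100 kb held from 2 to 12 circles, and the longest distance between neighbouring circle midpoints was 71.9 kb. The Pde4d circles divided 16, 12 and 9 over the 3 parts at E18, 16, 16 and 24 at 3d, and 12, 3 and 3 at 8w. Of those in the 5′ part in the adult, 7 of 13 were in replicate 2, 5 of 5 in replicate 3 and 0 of 1 in replicate 1, so the uneven adult division rests on few circles of 2 libraries. Overlap between circles was rare, with 10 overlapping pairs, 3 of them sharing at least 50% of the longer circle.

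**Figure D4:**
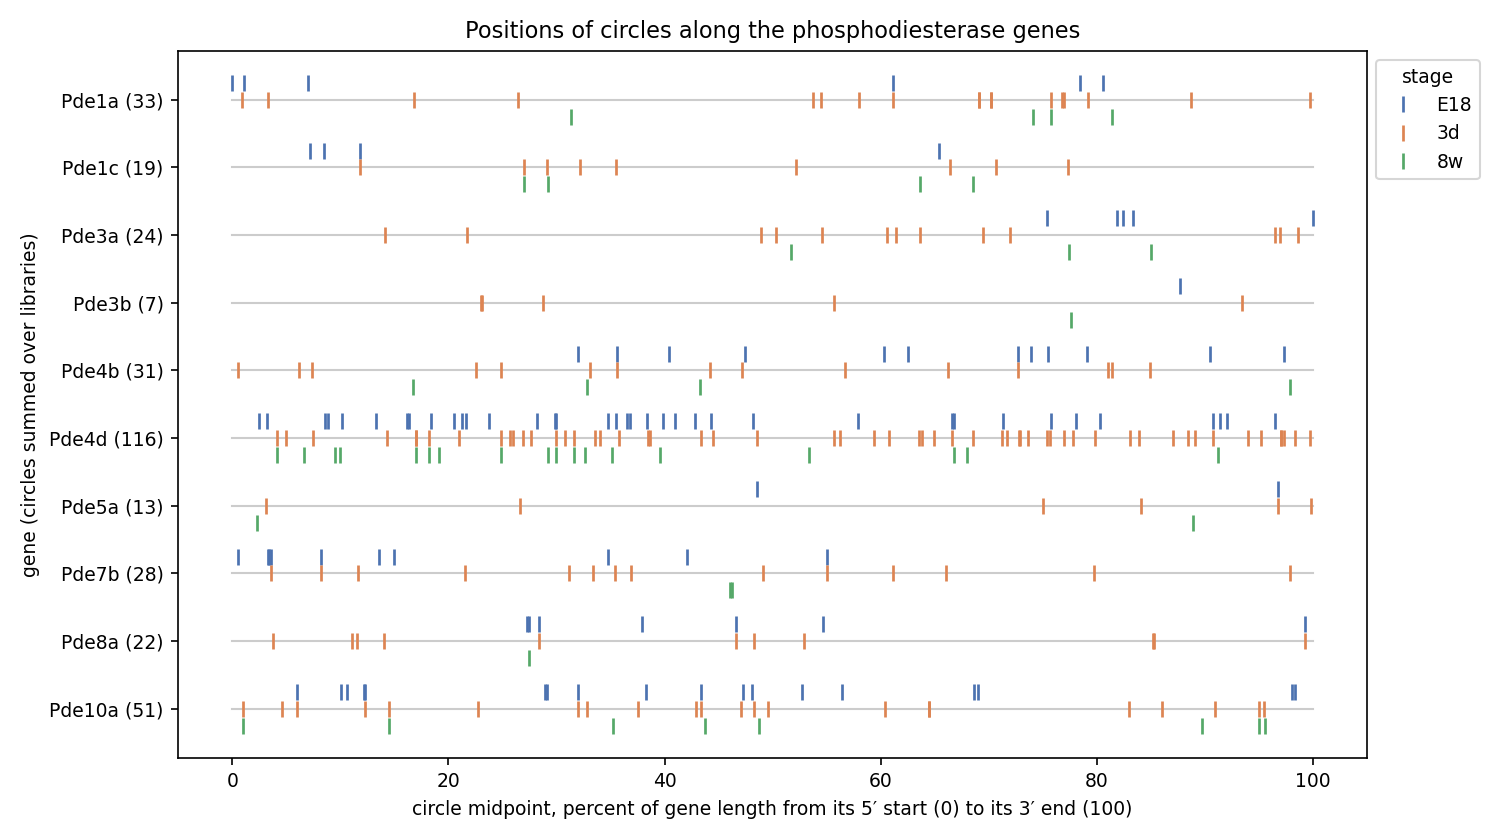
Position of every circle along each phosphodiesterase gene, as the circle midpoint in percent of gene length from the 5′ end. Ticks above the line are E18, on the line 3d and below it 8w; circles lie along the whole of Pde4d, while Pde3a has 2 of 21 in its 5′-most part and Pde7b 2 of 23 in its 3′-most part.

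Per length of gene, distinct circles numbered from 50 per Mb in Pde1c to 124 per Mb in Pde8a. Pde10a (88.9), Pde1a (88.1) and Pde3a (84.0) followed Pde8a, then Pde7b (70.3), Pde5a (69.1), Pde4d (67.8), Pde3b (56.5), Pde4b (55.8) and Pde1c. Among the 2357 genes of at least 100 kb with a circle, the median was 66.7 per Mb, with 41.0 and 94.9 at the 10th and 90th percentile. Pde8a, with 15 circles in 121 kb, lay above that range, with 26 genes denser, and the other 9 lay within it. The densities of single genes are given without an interval for counting error. Together the 10 genes had 71.4 circles per Mb (exact Poisson 95% interval 63.4 to 80.2), so the large number of Pde4d circles went with its length. The gene model matters for some members. On the RefSeq gene bounds, Pde4d had 90 circles in 1302 kb in place of 102 in 1504 kb, Pde1c 25 in 583 kb in place of 15 in 300 kb, and Pde1a 32 in 362 kb in place of 26 in 295 kb, and the family as a whole had 69.7 per Mb.

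**Figure D5:**
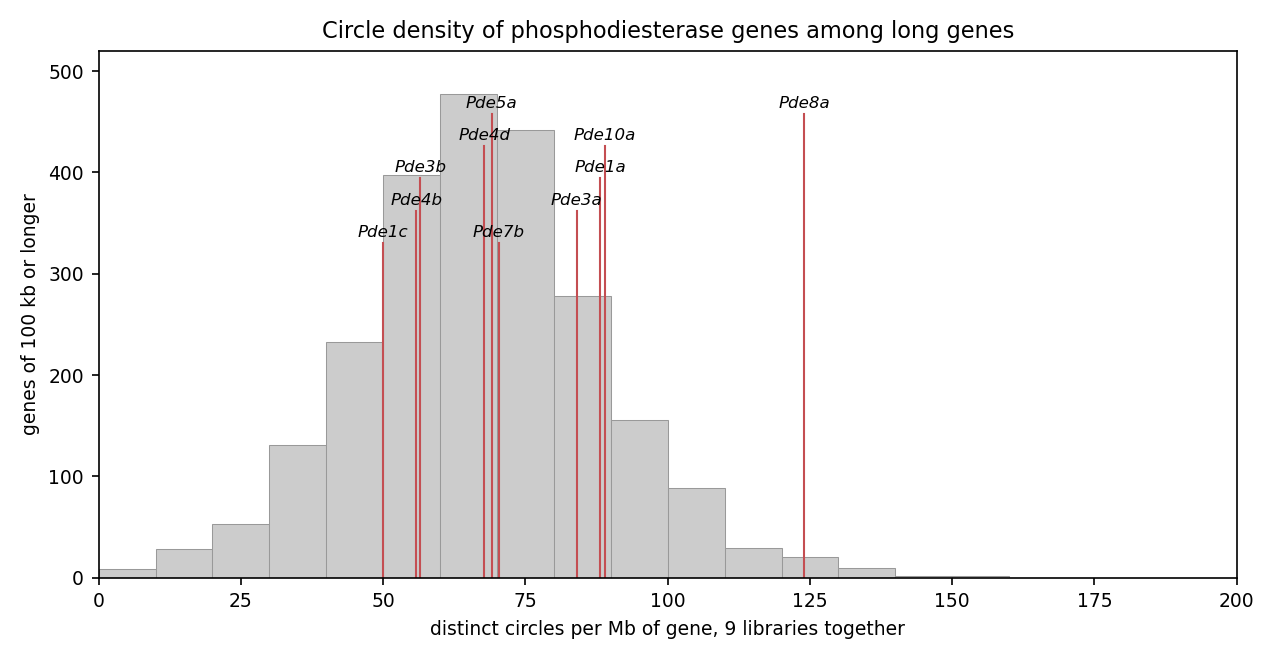
Distinct circles per Mb of gene for the 10 phosphodiesterase genes beside a histogram of all 2357 genes of at least 100 kb, in bins of 10 per Mb. Pde8a, at 124 per Mb on 15 circles, lies past the 90th percentile of 94.9, and the other 9 lie between 50 and 88.9.

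Read support was like that of other circles. The 288 circles had 5249 split reads, with a median of 11 per circle against 10 over all circles, and 7 (2.43%) had 100 or more reads, against 1.75% of all circles. Those 7 were 3 in Pde4d, 2 in Pde10a and 2 in Pde1a. Each was carried almost wholly by 1 library, with at most 1 read in any other. The 2 Pde4d circles not yet given lay at chr13:109527933-109528395 (463 bp, 107 reads in 3d replicate 1 and 1 in 3d replicate 2) and at chr13:109927133-109928613 (1481 bp, 113 reads in 3d replicate 1).

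The other genes of the cyclic nucleotide pathway were taken from a list of 68 that held the remaining phosphodiesterases, the cyclases, natriuretic peptides and their receptors, kinases and other effectors, anchoring proteins, receptors and G proteins. Of these, 57 had a circle and 20 had enough for the test. By edgeR 0 of 20 passed in either direction in each comparison, and 4 (3d over E18), 4 (8w over 3d) and 5 (8w over E18) had an unadjusted p under 0.05, against 4.83%, 13% and 8.6% of all genes. The 4 in 3d over E18 were higher at 3d (Adcy2, Adcy5, Gnai1 and Pde4dip). The 4 in 8w over 3d (Adcy5, Gucy1a2, Pde11a and Pde4dip) and the 5 in 8w over E18 (Adcy1, Adcy9, Akap13, Gucy1a2 and Pde11a) were lower at 8w. These changes are before the median is taken off, and the genes were named after their values were seen. Among all genes at an edgeR unadjusted p under 0.05, 92 of 105 were higher at 3d in 3d over E18. Only 2 of 283 (8w over 3d) and 12 of 187 (8w over E18) were higher at 8w, so these directions were shared by most such genes. The median relative log2 changes of the 20 tested genes were -0.24, -0.38 and -0.57. The gene of the list with the most circles was Prkg1, the cGMP-dependent kinase, with 20, 2 and 6 in the E18 libraries, 22, 6 and 21 in the 3d libraries and 1, 11 and 2 in the 8w libraries. Per 10000 this was 4.54 ± 2.01 for E18, 4.66 ± 2.30 at 3d and 4.34 ± 2.72 at 8w, again closer than the libraries of a stage. Akap6, which anchors protein kinase A at the nuclear envelope of heart cells, averaged 1.44 ± 0.719, 2.51 ± 0.859 and 3.03 ± 1.31 at E18, 3d and 8w (8w over E18, relative log2 change 0.75, SE 0.78, edgeR adjusted p = 0.957). Akap13, another kinase anchor, and Pde8b, the paralogue of Pde8a, had 31 circles summed over libraries each, and the adenylyl cyclase Adcy2 had 29. The lowest edgeR adjusted p over the list was 0.335.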

How the data were processed

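Circle-seq was run on 9 heart libraries, 3 at each of 3 stages. The submitters' processing notes list the builds GRCm38 and mm10 and the tools BWA 0.7.12, cutadapt 1.9.1, bedtools 2.27.1, SAMtools 1.9 and edgeR, whose version reads 0.6.9. Circles were found with Circle-Map, per the file headers. Which version and filters applied is not given in the sources. The authors deposited a count of split reads per circle and library and log2 values normalized with edgeR. All results rest on the counts, which were checked against the deposited log2 values. The deposited position, length and overlap columns give bp, and the gene columns name protein-coding genes.

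A circle was present with 1 or more split reads. Circles per gene (genes with at least 10 over 9 libraries) and split reads of circles in at least 3 libraries were compared by edgeR's quasi-likelihood test (version 4.0.16), scaled by TMM, in a joint fit of the 9 libraries on stage alone, with Benjamini-Hochberg adjustment and a threshold of 0.05. P-values measure the spread between these libraries only. Each SE was derived from the unshifted log2 change and the F statistic of the edgeR test, and is unstable for changes near 0. The scripts were tested on simulated data. Alternatives were DESeq2 1.42.0, library totals as the scaling, minimums of 1 or 20 circles and of 2 or 5 split reads, reads summed per gene, at least 50% of the circle inside the gene, thinning to 11377 split reads, leaving out each library, and the replicate number as a block. Same-numbered libraries of different stages did not deviate together (r from -0.0385 to 0.00753 over 9 pairs), so the numbers were not treated as pairs. Intervals are Wilson (shares), exact binomial (ratios of summed circles) or exact Poisson (density), all at 95%.

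The members and lists were chosen with earlier results of these data known. All 10 members were named, and of each the circle in the most libraries, the one with the most reads, the longest and any at the gene start, of which those that a result turns on are given, as well as the 5 genes of the wider list with the most circles. Other circles were named after their values were seen. Exon annotation and genome sequence beyond RefSeq promoter windows and hairpins were not used here. Positions count from 1. Other software was R 4.3.3, Python 3.11.15, pandas 2.3.3, NumPy 2.4.6, SciPy 1.17.1 and matplotlib 3.10.9.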

Additional observations from a re-analysis of the deposited data

How the results depend on the processing

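No member passed the edgeR or DESeq2 test on circles per gene under any of the alternatives, whose lowest adjusted p was 0.51 (3d over E18), 0.395 (8w over 3d) and 0.364 (8w over E18). Members short of the minimum count were not tested. Of the 9, thinning kept only Pde4b, Pde4d, Pde7b and Pde10a, the minimum of 20 circles dropped Pde1c and Pde5a, and 2 or 5 split reads dropped Pde5a. At an unadjusted p under 0.05, members appeared 10 times over these 19 alternatives. Among all genes, edgeR gave such values in 8w over 3d to 466 of 14085 (1 circle) and 199 of 1733 (2 split reads). Without 8w replicate 1 it was 130 of 2116 (8w over 3d) and 109 of 2116 (8w over E18), and without 8w replicate 2 188 of 1979 (8w over 3d). In 8w over E18 it was 134 of 1733 (2 split reads), 84 of 1248 (5 split reads) and 264 of 2174 (summed reads). In 3d over E18 it was 74 of 2174 (summed reads) and 124 of 1685 (without E18 replicate 1). By edgeR, Pde8a was lower at 8w with a minimum of 1 circle (8w over 3d, unadjusted p = 0.0476), with 2 split reads (8w over 3d, unadjusted p = 0.0328, and 8w over E18, unadjusted p = 0.0227), with 5 split reads (8w over E18, unadjusted p = 0.0366) and with summed reads (8w over E18, unadjusted p = 0.00495), and Pde5a was higher in 3d over E18 with summed reads (unadjusted p = 0.0363), at adjusted p-values from 0.364 to 0.998. The other 4 left out a library. Pde8a was lower at 8w than at 3d or E18 without 8w replicate 1 (edgeR unadjusted p = 0.024 against 3d and unadjusted p = 0.0287 against E18), while Pde1a was higher in 3d over E18 without E18 replicate 1 (unadjusted p = 0.0394) and lower in 8w over 3d without 8w replicate 2 (unadjusted p = 0.0091). With the replicate number as a block the calls remained at 0, and genes at an unadjusted p under 0.05 numbered 47, 173 and 95, against 105, 283 and 187 without it; by DESeq2 they numbered 15, 81 and 55. No library correlated best with libraries of its own number. DESeq2 called 2, 3 and 3 single circles where edgeR called 0. Several relative log2 changes of members turned sign, and the cause was not tested. For 8w over 3d, a minimum of 1 circle gave 0.32 for Pde7b, 0.20 for Pde3a and 0.14 for Pde1a, 2 and 5 split reads gave Pde3a 0.065 and 0.35, summed reads gave Pde7b 0.20, and the replicate block gave Pde7b 0.10. For 8w over E18, a minimum of 1 circle gave -0.015 for Pde4d and -0.25 for Pde10a, 20 circles gave Pde10a -0.027, at least 50% of the circle inside the gene gave Pde10a -0.012, and 5 split reads and summed reads gave Pde4b 0.14 and 0.24. For 3d over E18, summed reads gave Pde4d 0.33. Leaving out each library, values that turned sign ranged in 3d over E18 from -0.83 to 0.052 (Pde10a), -1.03 to 1.94 (Pde1c), -1.37 to 0.34 (Pde7b) and -1.11 to 0.11 (Pde8a). In 8w over 3d they ranged from -4.14 to 0.27 (Pde1a), -3.18 to 1.23 (Pde1c), -0.69 to 0.35 (Pde3a), -0.31 to 0.60 (Pde4b) and -0.47 to 0.92 (Pde7b). In 8w over E18 they ranged from -0.20 to 0.66 (Pde10a), -3.38 to 1.54 (Pde1a), -2.63 to 2.69 (Pde1c), -0.84 to 0.090 (Pde4b) and -0.73 to 0.25 (Pde7b). The lowest values of Pde1a and Pde1c are those without 8w replicate 2, which held all their adult circles, except in 3d over E18. Without Pde4d the family had 11.3 circles per 10000 at E18 and 12.5 at 3d, and weighted by reads 20.2 at 3d. Median lengths weighted by reads were 620 ± 413, 448 ± 120 and 114 ± 15.2 bp at E18, 3d and 8w. The E18 libraries stood at 392, 1097 and 371 bp. Thinned to 11377 reads, the medians at E18, 3d and 8w were 521 ± 132, 438 ± 58.6 and 127 ± 23.1 bp, with 100% of adult circles short. With at least 2 split reads the adult median was 116 bp over 2 libraries, since 8w replicate 1 held no such circle. The adult excess of short circles was present in each of these alternatives. The adult values rest on 50 circles summed over 3 libraries.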
